A study of Mus musculus with 12 samples.

Results

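Neural stem cells are recognised by a handful of filament, RNA-binding and membrane proteins, and 8 of their genes were followed here across 12 mouse cultures measured on Affymetrix arrays. The genes were Nes, Vim, Msi1, Msi2, Prom1, Ptprz1, Gpm6a and Mmd2 and were listed by name, in a choice made with earlier results of these data known. Each gene was read from the probe set annotated to it alone that had the highest mean signal over the 12 arrays. All 8 passed the filter on low values (a signal of 20 on at least 1 array), among 13650 genes that did.

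The arrays fall into 7 groups, and the series title names direct induction of neural stem cells. Neurospheres, balls of neural stem and progenitor cells grown in suspension, came from the ganglionic eminence (GE) of embryos, labelled E14, on 1 array. A further array held adult skin fibroblasts. The pluripotent pair consisted of induced pluripotent stem (iPS) cells of line 38C2 and embryonic stem (ES) cells of line EB3, and primary and secondary neurospheres were derived from both lines, with 1 array for each. Neurospheres from adult fibroblasts were on 2 arrays, grown with EGF and cAMP (replicate 1) or with leukaemia inhibitory factor, LIF (replicate 2). Neurospheres from embryonic fibroblasts were on 2 arrays, with LIF (replicate 3) or LIF plus cAMP (replicate 4). These 4 arrays are called fibroblast-derived neurospheres below. The strain was C57BL/6 except for the ES and iPS cells, and the medium of the neurospheres was MHM. The labels give neither a transgene nor the way fibroblasts were converted, and name no repeat cultures. Arrays of a pair differ in line or in medium, and p-values reflect only how far such arrays lay apart. Embryonic fibroblasts were not analysed here.

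A signal of 20 was reached by 40.5% to 49.1% of the probe sets, depending on the array. The markers of the labelled cell types were as follows. The summed signal of 7 radial glia and neural stem cell markers was 16373 on the GE array and 105 in adult fibroblasts. It was 8791 to 11501 in primary and secondary neurospheres and 3480 to 3538 in the pluripotent cells. The fibroblast-derived neurospheres, at 635 to 2200, lay below the pluripotent cells, with 6 (adult) and 5 (embryonic) markers reaching 20. Sox2 is on that list and was higher in pluripotent cells than in adult fibroblasts. The summed signal of 5 pluripotent cell markers was 15640 and 16096 in the iPS and ES cells, 2221 to 6205 in the adult-derived pair, 9459 to 9972 in the embryonic-derived pair and 46.6 on the GE array, with all 5 reaching 20 on at least 1 array of each fibroblast-derived pair. In primary neurospheres that sum spanned 57.9 to 7302. Of 6 fibroblast markers the sum was 20956 in adult fibroblasts and 354 to 2864 in fibroblast-derived neurospheres. It was 652 to 3731 in secondary and 120 to 308 in primary neurospheres, and 328 on the GE array. The 5 epithelial markers summed to 1983 to 6627 in fibroblast-derived neurospheres and to 81.5 on the GE array. Their sum was 2393.5 to 3226.7 in the pluripotent cells, 224.7 to 1979.2 in primary and 70.7 to 136.5 in secondary neurospheres. The GE array was highest in oligodendrocyte markers (13317, against 176 to 353 in fibroblast-derived neurospheres) and in astrocyte markers (4149, against 25.8 to 71.1, where 1 of 4 reached 20). The oligodendrocyte sum was 2093.9 to 3656.5 in secondary neurospheres, 169.5 to 181.7 in the pluripotent cells and 144 in adult fibroblasts. The astrocyte sum was 368.7 to 687.3, 21.3 to 35.8 and 137.8 in the same groups. The 5 neuron markers summed to 1945 on the GE array, 1118 to 1893 in the adult-derived pair and 652 to 779 in the embryonic-derived pair. Their sum was 1697.6 to 2610.4 in the pluripotent cells and 213.7 in adult fibroblasts. It was 4462 to 11070 in primary and 1779.8 to 4430.6 in secondary neurospheres. The 4 blood and macrophage markers summed to 35 on the GE array, 119 to 139 in the adult-derived and 313 to 1846 in the embryonic-derived pair. Their sum was 683.4 in adult fibroblasts and 93.1 to 170.1 in the pluripotent cells. The part of these cell types in the results below was not tested. In bulk RNA, fewer cells of a type and less RNA per cell cannot be told apart.

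Nestin (Nes) and vimentin (Vim) are intermediate filament proteins that form the cytoskeleton of neural progenitors, and vimentin is also the main filament of fibroblasts. Musashi-1 and Musashi-2 (Msi1, Msi2) are RNA-binding proteins of stem cells, and Musashi-1 represses the translation of Numb, an inhibitor of Notch signalling. Prominin-1 (Prom1, CD133) is a membrane glycoprotein of protrusions and cilia that is used to sort stem cells. Ptprz1 encodes a receptor tyrosine phosphatase of radial glia and oligodendrocyte precursors that carries chondroitin sulfate and binds pleiotrophin, contactin and tenascin. Gpm6a encodes a neuronal membrane glycoprotein of the proteolipid protein family. Mmd2 belongs to the progestin and adipoQ receptor family.

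Against the GE neurospheres, the fibroblast-derived ones were called lower below in the membrane genes Ptprz1, Gpm6a and Mmd2. They were not in Nes, Vim, Msi1, Msi2 and Prom1, the last also a membrane gene. The promoter windows of Ptprz1, Gpm6a, Mmd2 and the filament genes Nes and Vim are shown, 5 genes in all. Each window runs from 250 bases before to 50 bases after the annotated start, 5′ to 3′ on the gene's strand, in RefSeq sequence of the build GRCm38.p6, with CG dinucleotides in capitals. The windows are chr3:87970843-87971142 for Nes, chr2:13574061-13574360 for Vim, chr6:22875252-22875551 for Ptprz1 and chr8:54779184-54779483 for the first start of Gpm6a, all on the plus strand, and chr5:142608703-142609002 on the minus strand for Mmd2.
Nes: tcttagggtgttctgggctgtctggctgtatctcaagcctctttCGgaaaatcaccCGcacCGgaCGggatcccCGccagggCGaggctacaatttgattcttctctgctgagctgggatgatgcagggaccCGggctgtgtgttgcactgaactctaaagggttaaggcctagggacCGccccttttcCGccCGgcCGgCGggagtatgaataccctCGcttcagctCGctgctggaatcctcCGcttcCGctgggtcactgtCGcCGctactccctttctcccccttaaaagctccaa
Vim: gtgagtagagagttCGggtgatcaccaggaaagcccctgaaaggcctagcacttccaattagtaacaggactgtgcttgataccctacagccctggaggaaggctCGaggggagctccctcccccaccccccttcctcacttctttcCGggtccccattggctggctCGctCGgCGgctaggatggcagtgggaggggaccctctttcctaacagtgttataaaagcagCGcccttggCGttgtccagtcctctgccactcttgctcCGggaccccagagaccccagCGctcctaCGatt
Ptprz1: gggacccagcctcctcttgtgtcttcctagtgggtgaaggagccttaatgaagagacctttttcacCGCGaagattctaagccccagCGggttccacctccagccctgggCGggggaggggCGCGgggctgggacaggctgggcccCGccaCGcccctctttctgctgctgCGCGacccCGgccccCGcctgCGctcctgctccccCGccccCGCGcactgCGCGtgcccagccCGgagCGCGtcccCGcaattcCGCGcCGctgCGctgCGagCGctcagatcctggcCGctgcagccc
Gpm6a: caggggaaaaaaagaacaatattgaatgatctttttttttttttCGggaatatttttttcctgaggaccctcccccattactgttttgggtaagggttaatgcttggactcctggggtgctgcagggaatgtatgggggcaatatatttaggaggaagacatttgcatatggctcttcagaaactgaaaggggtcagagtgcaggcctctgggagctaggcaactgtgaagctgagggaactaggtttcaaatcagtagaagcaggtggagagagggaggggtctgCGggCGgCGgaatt
Mmd2: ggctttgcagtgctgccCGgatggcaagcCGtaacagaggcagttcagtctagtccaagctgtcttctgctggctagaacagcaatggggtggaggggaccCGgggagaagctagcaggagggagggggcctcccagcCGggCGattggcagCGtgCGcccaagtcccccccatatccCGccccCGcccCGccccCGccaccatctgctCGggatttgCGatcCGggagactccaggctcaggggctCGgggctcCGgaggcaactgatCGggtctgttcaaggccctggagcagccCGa

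The windows differed in CG content. Ptprz1 held 29 CG dinucleotides, Nes and Mmd2 18 each, Vim 11 and Gpm6a 4, beside a median of 7 over 32851 mouse promoter windows of the same length. The GC box GGGCGG, searched on both strands and present in 35.66% of all windows, was found 2 times in Nes and Ptprz1, 3 times in Mmd2 and 1 time in Gpm6a. The TATA box TATAAA (13.62% of windows) was found in Vim alone of these 5 windows, with 2 matches of CCAAT (37.41%), which Mmd2 held 1 time. The E-box CANNTG (72.31%) had 4 matches in Gpm6a and 2 in Mmd2. Gpm6a also held the octamer ATGCAAAT, which 1.735% of windows hold. The window of the second annotated start of Gpm6a, not shown, held 6 CG dinucleotides, 1 TATA box and 1 E-box, without GC box or octamer. Windows were matched for 7 of the 8 genes by symbol. These are letters in a window, not binding sites.

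Both filament genes had a clear signal in every neurosphere group. Nes stood at 132.8 on the GE array, at 326.1 and 296.6 in the iPS- and ES-derived primary neurospheres and at 242.9 and 202.7 in the secondary ones. It stood at 200.6 and 155.7 in adult-derived replicates 1 and 2, at 71.5 and 79.3 in embryonic-derived replicates 3 and 4, at 34.9 in adult fibroblasts and at 40 and 8.3 in iPS and ES cells. Thus on this probe set the adult-derived pair lay above the GE array and the embryonic-derived pair below it. All neurosphere arrays lay above the fibroblasts and pluripotent cells. On the second-brightest probe set the adult-derived pair (150.4 and 108.1) lay on both sides of the GE array (134.6). The same held for the third (20.4 and 12.1 against 15.2). In the order primary, secondary, adult-derived, GE, embryonic-derived, fibroblasts and pluripotent cells, no neighbours differed in the fit (adjusted p 0.27 to 0.672). The 3 probe sets of Nes had the same sign in each comparison of groups below except pluripotent cells against fibroblasts.

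Vim stood at 8627.3 in adult fibroblasts, the highest of the 12 arrays, and at 989.8 and 1061.9 in iPS and ES cells, the lowest. The GE array had 5290.1, the primary neurospheres 5001.7 and 4292.3, and the secondary neurospheres 5686.8 and 6079.4. The fibroblast-derived arrays had 4482.9 and 4128.7 (adult) and 3569.1 and 3144.2 (embryonic), all below the GE and secondary arrays and all above the pluripotent cells. Only the ends of this order differed from their neighbours, the fibroblasts from the secondary neurospheres (0.55 ± 0.17, SE, on the scale of log2(signal + 5), adjusted p = 0.047) and the embryonic-derived neurospheres from the pluripotent cells (1.70 ± 0.14, adjusted p = 0.000342). That scale, used for all differences here, understates the change of dim genes. Where a side is under 20, the size of a difference depends on the 5 that is added.

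On their brightest probe sets, the Musashi genes were highest in neurospheres from pluripotent cells. Msi1 stood at 708.4 and 530.4 in primary and 291.7 and 336.3 in secondary neurospheres, at 163.1 on the GE array, and at 92.0, 91.5, 70.6 and 75.8 in fibroblast-derived replicates 1 to 4. It stood at 23.0 in adult fibroblasts and at 175.5 and 41.3 in iPS and ES cells. The 4 fibroblast-derived arrays lay close together, below every other neurosphere array, above the fibroblasts and between the iPS and ES cells. No neighbours in the order of groups differed (adjusted p 0.143 to 0.929).

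Msi2 stood at 191.7 in adult fibroblasts, the lowest array, and at 536.9 and 392.0 in iPS and ES cells. It stood at 1103.7 and 700.5 in primary and 936.8 and 873.4 in secondary neurospheres, at 671.0 on the GE array and at 553.7, 547.2, 597.6 and 557.6 in fibroblast-derived replicates 1 to 4. On this probe set the fibroblast-derived arrays thus lay within a narrow range just above the iPS cells and below all other neurospheres. Other probe sets of Msi2 gave another order, as described below. In the order of groups the fibroblasts differed from their neighbour, the pluripotent cells (1.24 ± 0.30, adjusted p = 0.0123), and no other neighbours did.

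Prom1 varied widely within pairs. It stood at 5.3 in adult fibroblasts and at 210.0 and 51.8 in iPS and ES cells. The primary neurospheres had 872.1 and 817.3, the iPS- and ES-derived secondary neurospheres 697.7 and 2638.4, and the GE array 392.0. In fibroblast-derived replicates 1 to 4 it stood at 241.2, 677.5, 272.6 and 780.7. The fibroblasts had the lowest signal of the 12 arrays, and the fibroblast-derived arrays lay on both sides of the GE array. Prom1 had 1 probe set, so no other reading of it was available in these data.

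Ptprz1 was strongest on the GE array, at 3176.7, and in the secondary neurospheres, at 2274.1 and 2054.2. It stood at 421.6 and 360.3 in primary neurospheres, at 188.5 and 43.5 in the adult-derived pair and at 553.4 and 476.5 in the embryonic-derived pair. It stood at 98.1 in adult fibroblasts and at 8.3 and 10 in iPS and ES cells. On this probe set the embryonic-derived pair lay above the primary neurospheres and the adult-derived pair on both sides of the fibroblasts. The steps that differed in the order of groups were secondary over embryonic-derived neurospheres (2.06 ± 0.52, adjusted p = 0.0192), primary neurospheres over fibroblasts (1.94 ± 0.64, adjusted p = 0.0458) and adult-derived neurospheres over pluripotent cells (2.78 ± 0.52, adjusted p = 0.00867).

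Gpm6a was bright in neurospheres of GE, iPS and ES origin alone among the 7 groups. It stood at 3837.8 on the GE array, at 2683.8 and 1954.0 in secondary and at 1655.8 and 706.2 in primary neurospheres. In fibroblast-derived replicates 1 to 4 it stood at 1.3, 25.7, 1.6 and 4.7, in adult fibroblasts at 3.5, and in iPS and ES cells at 7.9 and 1.0. Only adult-derived replicate 2, given LIF, passed 20 among these 7 arrays, and signals under 20 are not ordered here. The step between primary and adult-derived neurospheres was the one that differed (6.29 ± 0.74, adjusted p = 0.00131).

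Mmd2 was highest on the GE array and lower in steps from there. It stood at 4432.5 there, at 468.5 and 704.6 in secondary and at 37.6 and 47.3 in primary neurospheres. All other arrays were under 20, with 4.9, 8.9, 1.2 and 1.0 in fibroblast-derived replicates 1 to 4, 3.9 in adult fibroblasts and 9.4 and 15.0 in iPS and ES cells. Each of the first 3 steps in the order differed: GE over secondary neurospheres (2.94 ± 0.42, adjusted p = 0.0133), secondary over primary (3.62 ± 0.34, adjusted p = 0.00514) and primary over pluripotent cells (1.48 ± 0.34, adjusted p = 0.0143).

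**Figure D1:**
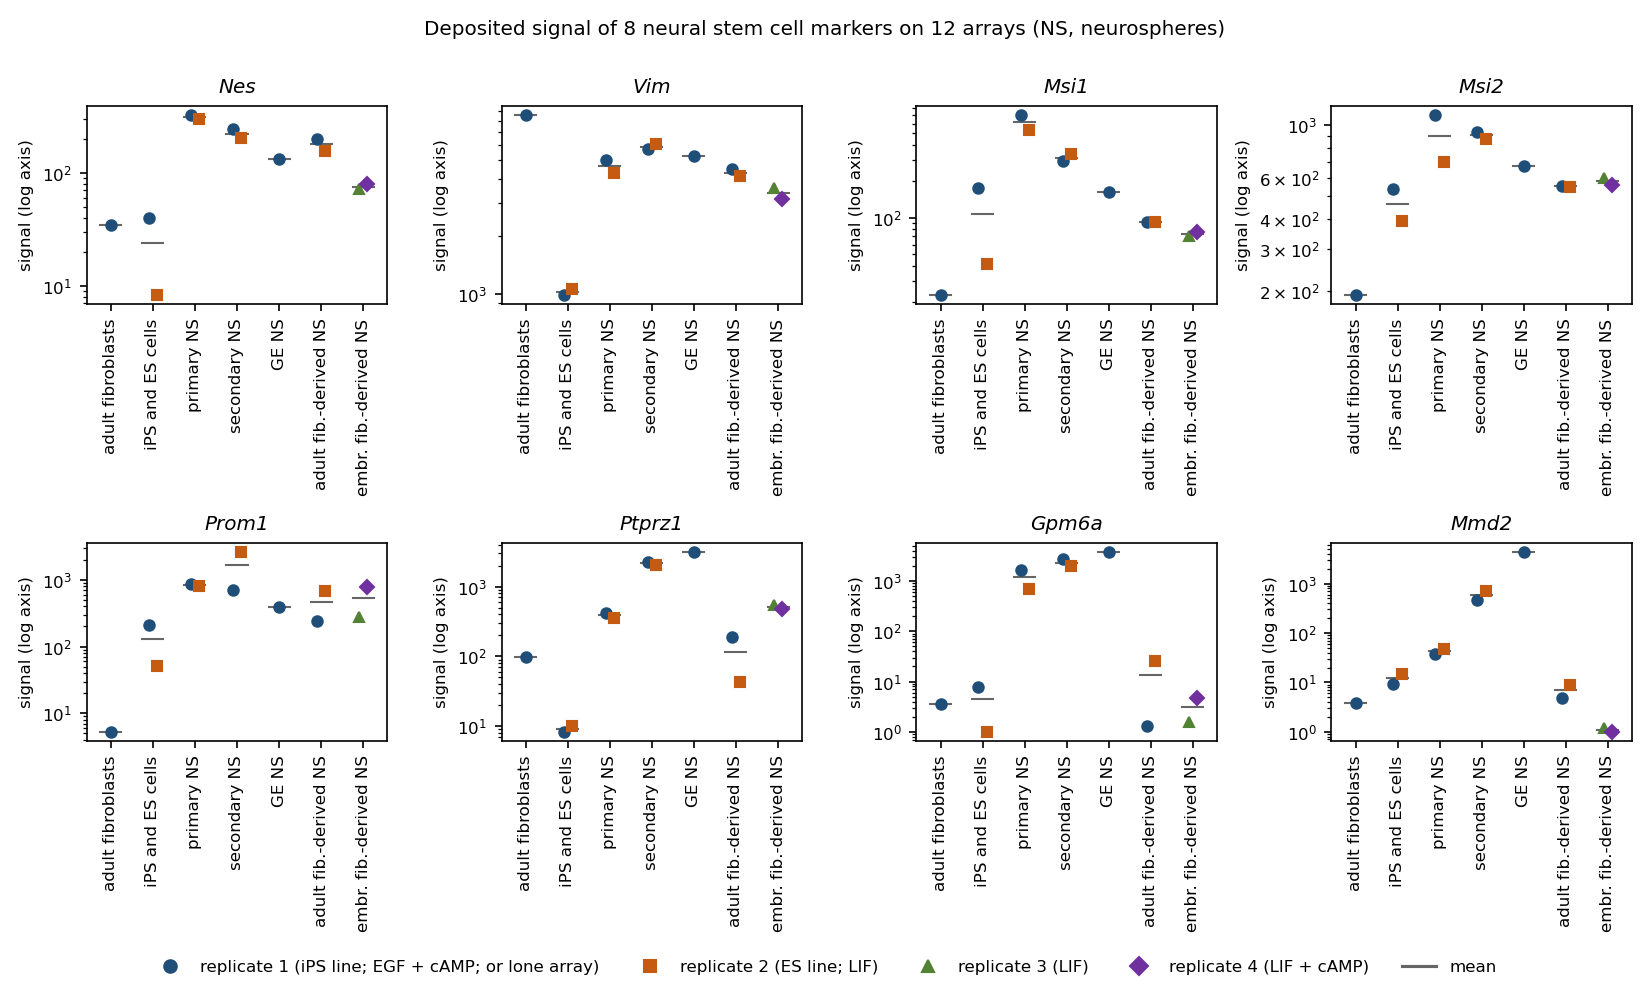
Deposited signal (log axis) of each of the 8 genes on each of the 12 arrays, in 7 groups, with 1 point per array and NS standing for neurospheres. Gpm6a and Mmd2 are near the bottom of their axes in fibroblast-derived neurospheres, while Vim lies between 3144.2 and 4482.9 there.

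All 8 genes varied among the 7 groups (F test in limma, adjusted p 3.96e-05 for Mmd2 to 0.00613 for Prom1), where 61.6% of the 13650 genes tested did. Over the 12 arrays, which share the groups and the scaling, Msi2 and Prom1 had the highest Pearson r of any member pair (0.897), followed by Msi1 with Msi2 (0.874) and Gpm6a with Mmd2 (0.873). Vim and Msi2 had the lowest (0.101). These correlations describe 12 arrays of 7 groups and were not tested.

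Against the GE neurospheres, the neural reference, the fibroblast-derived neurospheres had filament, Musashi and prominin signals within a log2 difference of 1 but very little Gpm6a and Mmd2. Mmd2 was lower, at 4 ± 3.73 (SD, n = 4) against 4432.5, a log2 difference of -9.04 ± 0.38 (SE, adjusted p = 2.24e-05). Gpm6a was lower at -8.51 ± 0.82 (adjusted p = 0.000338). Ptprz1 was lower at -3.83 ± 0.58 (adjusted p = 0.00219), with a mean signal 9.93% of that on the GE array. These 3 of 8 members passed, all lower, beside 28.4% of all genes (12.8% lower). The other 5 did not pass: Nes at -0.19 ± 0.55, Vim at -0.48 ± 0.16 (adjusted p = 0.0521), Msi1 at -0.95 ± 0.59, Msi2 at -0.25 ± 0.28 and Prom1 at 0.14 ± 0.94. Missing the threshold does not show equal levels. Arrays did not overlap for 6 of 8 members, where 73.7% of all genes did not. The calls of Ptprz1, Gpm6a and Mmd2 held under all 23 alternatives, with log2 differences of -7.84 to -2.62, -9.45 to -7.17 and -10.11 to -6.53. Vim passed without primary replicate 1 (adjusted p = 0.0424) or 2 (0.0416), and Msi1 without pluripotent replicate 1 (0.0246) or 2 (0.0231). The GE neurospheres, like the adult fibroblasts, had 1 array each, and the fit gives them the spread of the pairs.

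Against adult skin fibroblasts, the source cell type of the adult-derived pair, the fibroblast-derived neurospheres had more Prom1 and Msi2 and less Vim. Prom1 was higher, at 493 ± 276 (SD, n = 4) against 5.3, a log2 difference of 5.41 ± 0.94 (adjusted p = 0.00566). With the fibroblasts under 20 its size depends on the processing, from 4.17 to 6.10 over 22 alternatives. Msi2 was higher at 1.53 ± 0.28 (adjusted p = 0.00665), and Vim, the filament of mesenchymal cells, was lower at -1.18 ± 0.16 (adjusted p = 0.00221). These 3 of 8 members passed, beside 23.2% of all genes (15% higher and 8.21% lower). The arrays did not overlap for 5 of 8 members, beside 72.1% of all genes. Nes (1.60 ± 0.55, adjusted p = 0.066) and Msi1 (1.63 ± 0.59, adjusted p = 0.0777) did not pass. Both passed with the line of origin as a block (adjusted p = 0.0307 and 0.0422), and without pluripotent replicate 1 (0.00563 and 0.00478) or 2 (0.00526 and 0.00458). Ptprz1 (1.12 ± 0.58, adjusted p = 0.198) passed without adult-derived replicate 2 (1.62, adjusted p = 0.00716). With the adult-derived pair alone Nes passed too (2.19, adjusted p = 0.0352) while Ptprz1 stood at -0.09. Gpm6a and Mmd2 were under 20 in the fibroblasts and on all but 1 and all of the fibroblast-derived arrays, so no fold is given.

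Against the pluripotent pair, fibroblast-derived neurospheres had more of both filament genes and of Ptprz1. Vim was higher at 1.88 ± 0.12 (adjusted p = 9.39e-05), Nes at 2.30 ± 0.42 (adjusted p = 0.00553) and Ptprz1 at 3.99 ± 0.45 (adjusted p = 0.000698). Ptprz1 was under 20 in the pluripotent cells, and its difference was 0.79 to 5.20 over 23 alternatives, 0.79 being that of the second-brightest probe set. With Mmd2, these were 4 of 8 members (30.2% of all genes, 20.4% higher and 9.77% lower), and the arrays did not overlap for 6 of 8 (49% of all genes). The call of Mmd2, which was lower, rests on signals under 20 on both sides and ended in 4 of 10 fits that left out 1 array (adjusted p 0.0804 to 0.186). It ended without adult-derived replicate 1, embryonic-derived replicate 3 or 4, or pluripotent replicate 2. Prom1 (1.99 ± 0.73, adjusted p = 0.0711) passed without the iPS array (2.95, adjusted p = 0.038). Msi1, at -0.07 ± 0.46, passed as lower without the ES array (-1.05, adjusted p = 0.0311) and stood at 0.91 without the iPS array.

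Primary neurospheres, taken from the same lines, had more of all members than the pluripotent cells they came from. All 8 of 8 were higher, beside 19.3% of all genes (30.1% called in either direction), and the arrays did not overlap for any of them (64.5% of all genes). Gpm6a was higher at 6.95 ± 0.74 (adjusted p = 0.000546) and Ptprz1 at 4.80 ± 0.52 (adjusted p = 0.00062). Both were under 20 in the pluripotent cells, and their differences were at least 5.51 and 3.81 over 21 alternatives. Nes was higher at 3.69 ± 0.49 (adjusted p = 0.00138). Prom1 was higher at 2.94 ± 0.84, Msi1 at 2.76 ± 0.53, Vim at 2.17 ± 0.14, Mmd2 at 1.48 ± 0.34 and Msi2 at 0.93 ± 0.25. Each gene was higher in primary neurospheres in both lines, from 0.83 for Msi2 in the ES line to 7.01 for Gpm6a in the iPS line. The median over the members was 2.85, beside 0.05 over all genes. The call of Prom1 ended without primary replicate 1 or 2 or the ES array (adjusted p 0.0704 to 0.167), that of Msi2 without primary replicate 1 (adjusted p = 0.156) or the ES array (0.109), and that of Mmd2 without the iPS array (0.0525). In a fit of only these 4 arrays 5 of 8 were called, without Msi1 (0.0546), Msi2 (0.135) and Mmd2 (0.0889). Msi2 was called in 15 of 21 alternatives, and 2 of its 7 probe sets were called higher.

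From primary to secondary neurospheres, Mmd2 and Ptprz1 were higher again. Mmd2 was higher by 3.62 ± 0.34 (adjusted p = 0.00514), by 3.47 in the iPS and 3.76 in the ES line, and did not pass in a fit of only these 4 arrays (adjusted p = 0.0795). Ptprz1 was higher by 2.46 ± 0.52 (adjusted p = 0.0469), by 2.42 and 2.49 in the same lines. These 2 of 8 members passed, beside 2.78% of all genes (1.99% higher), and 6 of 8 did not overlap (50% of all genes). The call of Ptprz1 on its brightest probe set ended without any 1 of 8 arrays (adjusted p 0.0531 to 0.243), with a log2 difference of 2.34 to 2.57. These 8 were pluripotent, primary and secondary replicates 1 and 2 and embryonic-derived replicates 3 and 4. Gpm6a stood higher in both lines (0.70 and 1.46) and did not pass (1.08 ± 0.74, adjusted p = 0.453). Nes and Msi1 stood lower in both lines and did not pass (-0.48 ± 0.49 and -0.96 ± 0.53).

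On the brightest probe sets, Mmd2 was the one of 8 members called between secondary and GE neurospheres (-2.94 ± 0.42, adjusted p = 0.0133), beside 3.89% of all genes (2.4% higher and 1.49% lower). The 2 secondary arrays lay on 1 side of the GE array for 8 of 8 members, as they did for 78.2% of all genes. Ptprz1 and Gpm6a were at 68.1% and 60.4% of the GE signal on average and did not pass (-0.55 ± 0.64 and -0.74 ± 0.90). Mmd2 was at 13.2%, and its call ended in a fit of only the secondary and GE arrays (adjusted p = 0.114).

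The fibroblast-derived neurospheres were lower than secondary neurospheres in 6 of 8 members, beside 16.7% of all genes (33.6% called in either direction, 17% higher), and 7 of 8 did not overlap (56.2% of all genes). Gpm6a was lower at -7.77 ± 0.64 (adjusted p = 0.000108), Mmd2 at -6.10 ± 0.30 (adjusted p = 1.74e-05) and Ptprz1 at -3.27 ± 0.45 (adjusted p = 0.00109), and these held under all 23 alternatives. Msi1 was lower at -1.87 ± 0.46 (adjusted p = 0.0148), Msi2 at -0.68 ± 0.22 (adjusted p = 0.0407) and Vim at -0.63 ± 0.12 (adjusted p = 0.00543). The call of Msi2 ended without secondary replicate 1 or 2 or any 1 of the 4 fibroblast-derived arrays (adjusted p 0.0819 to 0.184). That of Msi1 ended without secondary replicate 1 or 2 (0.0677 and 0.0916), and that of Vim without secondary replicate 2 (0.0515), which left 3 calls. Nes (-0.91 ± 0.42, adjusted p = 0.13) passed without pluripotent replicate 1 or 2 (0.0116 and 0.0109).

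They were lower than primary neurospheres in 4 of 8 members, beside 14.3% of all genes (29.9% called in either direction), and 6 of 8 did not overlap (49.6% of all genes). Gpm6a was lower at -6.69 ± 0.64 (adjusted p = 0.000266), Msi1 at -2.83 ± 0.46 (adjusted p = 0.00235), Mmd2 at -2.48 ± 0.30 (adjusted p = 0.000639) and Nes at -1.39 ± 0.42 (adjusted p = 0.038). The call of Nes ended without any 1 of the 8 primary, secondary and fibroblast-derived arrays (adjusted p 0.0557 to 0.181). Msi2 (-0.64 ± 0.22, adjusted p = 0.0543) passed with the line as a block (0.0158), and without pluripotent replicate 1 (0.0399) or 2 (0.04) or primary replicate 2 (0.0152). Ptprz1 (-0.82 ± 0.45, adjusted p = 0.208) passed without adult-derived replicate 1 (-1.32, adjusted p = 0.00402). The comparisons of the fibroblast-derived arrays with the other groups share those 4 arrays.

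**Figure D2:**
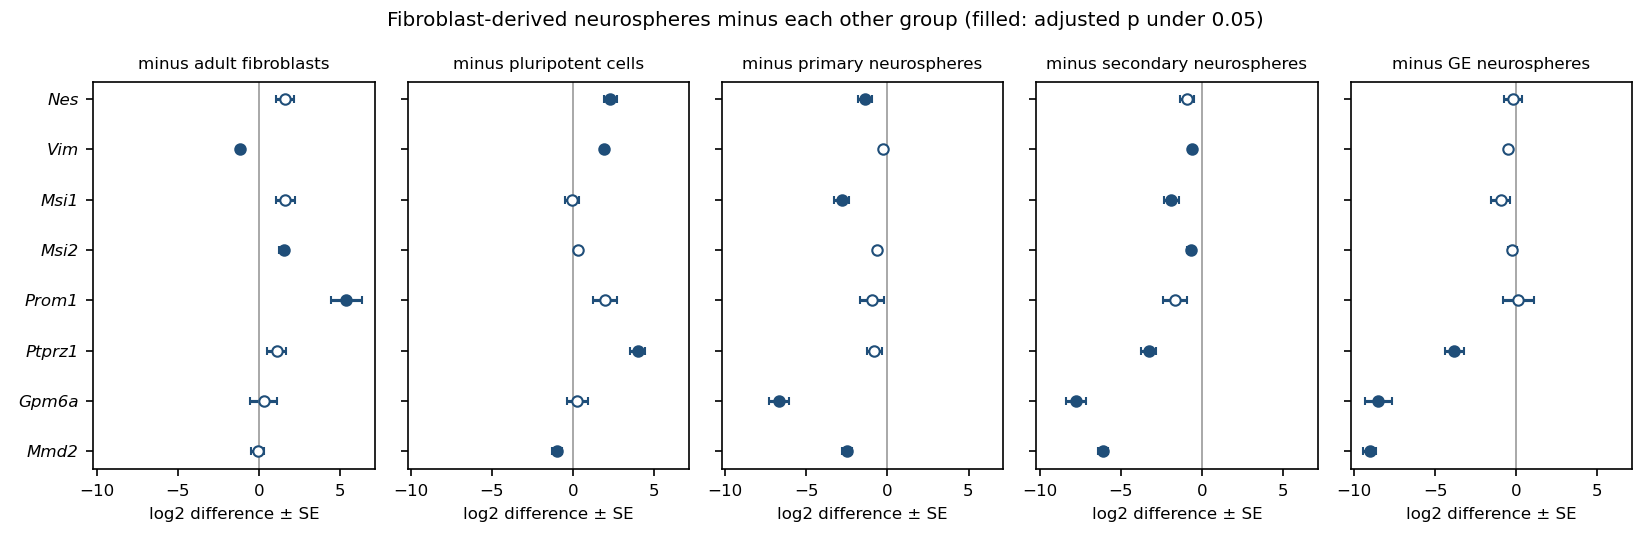
Log2 difference (scale of log2(signal + 5)) of the fibroblast-derived neurospheres (4 arrays) from each other group for the 8 genes, with bars of 1 SE and filled points where the adjusted p was under 0.05. Gpm6a and Mmd2 lie far to the left against the 3 neurosphere groups, and Prom1 to the right against adult fibroblasts.

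The probe sets of a gene did not always agree. Those of Ptprz1 had the same sign in each comparison of groups but differed in size. The second-brightest probe set of Ptprz1 read 5.3, 4.9, 7.9 and 5.6 in fibroblast-derived replicates 1 to 4, where the brightest read 188.5, 43.5, 553.4 and 476.5 and the third 116.7, 24.2, 240.0 and 206.3. In the other neurospheres the second-brightest was bright, at 191.0 and 207.3 in primary, 2085.1 and 1861.1 in secondary and 2477.1 on the GE array. It read 1.8 in adult fibroblasts and 0.3 and 2.5 in iPS and ES cells. On that probe set the fibroblast-derived arrays were all under 20, and against primary neurospheres they were lower at -4.23 ± 0.24 (adjusted p = 3.67e-05), where the brightest did not pass. Against the GE neurospheres all 3 probe sets were lower, the second-brightest at -7.84 ± 0.31 (adjusted p = 8.52e-06). The difference from pluripotent cells was 0.79 ± 0.24 (adjusted p = 0.0382) on the second-brightest, with both sides under 20, and 3.99 on the brightest. The difference between probe sets was not tested, and where on the transcript each lies was not analysed here.

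Msi2 had 7 probe sets that passed the filter, and the third-brightest differed from the brightest in direction. It read 325.9 on the GE array, 175.0, 158.6, 148.9 and 164.5 in fibroblast-derived replicates 1 to 4, and 64.2 and 60.2 in primary and 65.8 and 93.3 in secondary neurospheres. It read 44.7 in adult fibroblasts and 35.7 and 22.4 in iPS and ES cells. On it the fibroblast-derived neurospheres lay above both pluripotent-derived groups, with log2 differences of 1.31 ± 0.25 (adjusted p = 0.00491) from primary and 0.997 ± 0.248 (adjusted p = 0.0163) from secondary neurospheres. The brightest probe set was called lower against the secondary ones. Secondary neurospheres were lower than the GE array on the third-brightest probe set (-1.99 ± 0.35, adjusted p = 0.0213), and no other probe set of Msi2 was called there. Of the 7 probe sets, 3 were called lower and 1 higher against secondary neurospheres, and 1 higher and none lower against primary. The direction of Msi2 against these groups is therefore uncertain. For Mmd2 the second-brightest probe set was lower in the same comparisons (-8.58 ± 0.33 from GE and -6.17 ± 0.25 from secondary neurospheres), except against pluripotent cells (0.20 ± 0.25, adjusted p = 0.582).

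**Figure D3:**
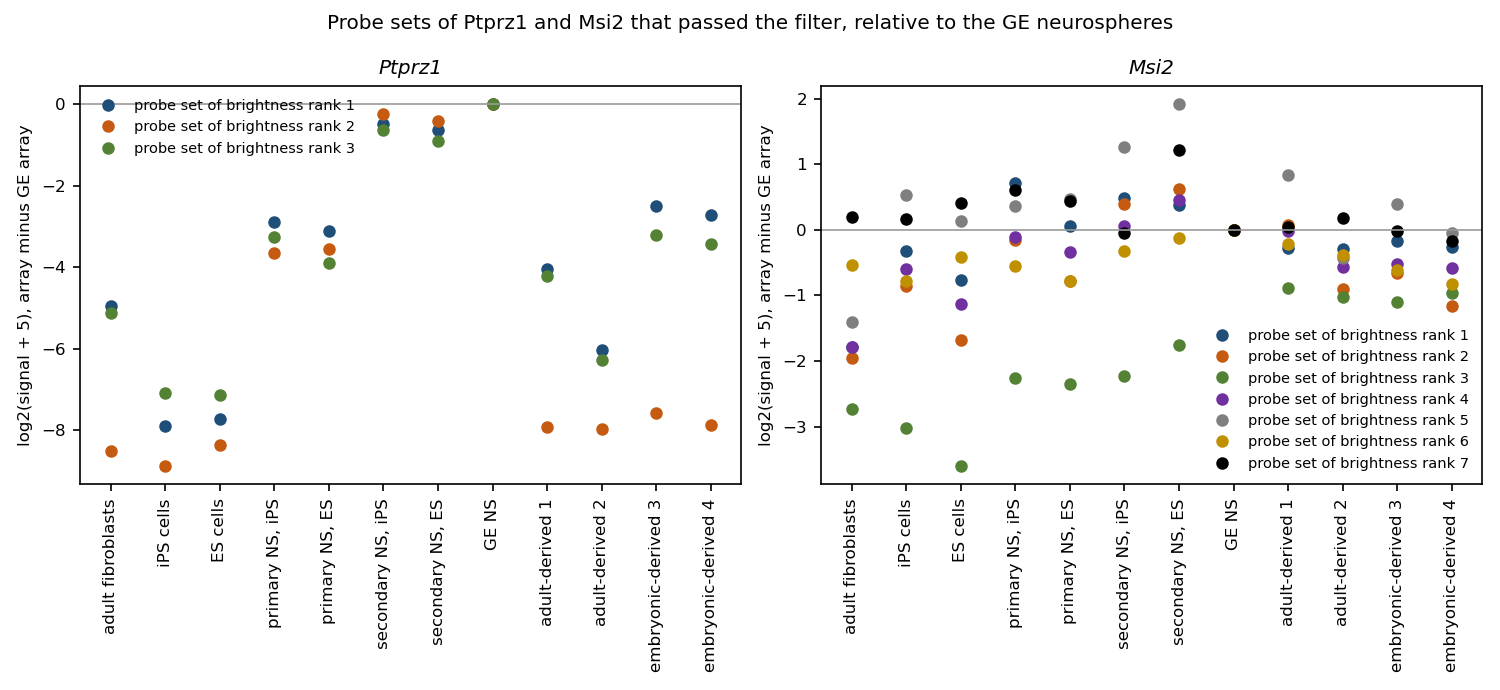
Log2(signal + 5) of each passing probe set of Ptprz1 (3) and Msi2 (7) on each array, minus its value on the GE array, which is at 0. For Ptprz1 the second-brightest probe set lies near -8 in the 4 fibroblast-derived arrays, apart from the others. For Msi2 the third-brightest lies below the other probe sets in adult fibroblasts, in pluripotent cells and in neurospheres derived from pluripotent cells.

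Between the embryonic- and adult-derived pairs none of the 8 members passed in limma, beside 0.469% of all genes (0.403% higher and 0.0659% lower), and 4 had an unadjusted p under 0.05. The arrays of the pairs did not overlap for 6 of 8 (55.4% of all genes). Ptprz1 stood higher in the embryonic-derived pair (2.42 ± 0.52, adjusted p = 0.123) and passed without adult-derived replicate 1 (3.42, adjusted p = 0.00665). Its second-brightest probe set, under 20 on all 4 arrays, gave 0.21 ± 0.28. Nes stood lower in the embryonic-derived pair (-1.18 ± 0.49, adjusted p = 0.402). Within the adult pair, EGF with cAMP against LIF, the signals of Prom1 were 241.2 and 677.5, and within the embryonic pair, LIF against LIF with cAMP, they were 272.6 and 780.7. Each medium was on 1 array per origin, so media were not tested, and medium, origin and culture cannot be told apart. Between cultures of ES and iPS origin, with the stage as a term, none of the 8 passed, beside 0.00733% of all genes, and 1, Gpm6a, had an unadjusted p under 0.05 (-0.93 ± 0.23, adjusted p = 0.271). The arrays of the origins overlapped for all 8 members (6.1% of all genes did not overlap).

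Pluripotent cells differed from adult fibroblasts in 4 of 8 members, 2 higher (Msi2 and Prom1) and 2 lower (Vim and Ptprz1), beside 39.1% of all genes (19.5% each way), and 6 of 8 did not overlap (85.1% of all genes). Vim was lower at -3.07 ± 0.17 (adjusted p = 0.000153) and Ptprz1 at -2.87 ± 0.64 (adjusted p = 0.00821). Ptprz1 thus had a signal in skin fibroblasts, 98.1 on the brightest and 59.8 on the third probe set but 1.8 on the second-brightest, where its difference was -0.11. Prom1 was higher at 3.42 ± 1.03 (adjusted p = 0.0288), which ended without the iPS array (2.46, adjusted p = 0.106), and Msi2 at 1.24 ± 0.30. Msi1 (1.71 ± 0.65, adjusted p = 0.0656) passed with the line as a block (0.0352) and without the ES array (2.69, adjusted p = 0.00193). Nes, at -0.71 ± 0.60, passed as lower without the iPS array (-1.58, adjusted p = 0.00803).

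The partners of these genes were read from 7 lists of related genes, 88 of 94 listed genes being tested. The first list held ligands, partners and relatives of PTPRZ1. Of 15 tested, 10 were lower and 2 higher in fibroblast-derived than in GE neurospheres (median -3.68, beside 0.07 over all genes, of which 12.8% were lower and 15.6% higher). Against primary neurospheres 10 were lower and 0 higher (median -1.98), and against secondary 11 and 0 (median -3.16), where 14.3% and 16.7% of all genes were lower. Ptprz1 itself did not pass against primary neurospheres. The brain chondroitin sulfate proteoglycan gene Ncan stood at 5.1 to 16.4 in fibroblast-derived neurospheres, 2141.9 on the GE array and 1922.1 and 1356.6 in secondary neurospheres. The related Cspg5 stood at 14.4 to 19.4 against 1460.1 on the GE array (-6.09 ± 0.29, adjusted p = 2.24e-05). The adhesion gene Nrcam stood at 22.5 to 36.3 against 443.6, and contactin-1 (Cntn1), a ligand of the phosphatase, at 10.9 to 15.4 against 1022.6 and 510.3 in secondary neurospheres (-5.25 ± 0.32, adjusted p = 4.71e-05). All 4 were thus far below these neurospheres on every fibroblast-derived array. Against adult fibroblasts 1 was higher and 5 lower (15% and 8.21% of all genes), among them the proteoglycan gene Vcan (-2.85 ± 0.36) and tenascin-C (Tnc, -5.64 ± 0.97). In primary neurospheres 9 were higher and 1 lower than in pluripotent cells (19.3% and 10.8% of all genes), with Nrcam at 4.58 ± 0.29.

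Other intermediate filament genes, among them keratins, lamins and neurofilaments, were called in directions that depended on the comparison. Of 16 tested, 8 were higher and 2 lower in fibroblast-derived than in GE neurospheres (median 1.23, with 15.6% and 12.8% of all genes). Against adult fibroblasts 6 were higher and 0 lower (median 1.20, with 15% and 8.21% of all genes), among them the lamin gene Lmnb1 (2.59 ± 0.23) and the neurofilament gene Nefl (171.9 to 463.4 against 2.7). In pluripotent cells 5 were higher and 2 lower than in adult fibroblasts (19.5% of all genes each way). Lmnb1 (3.46 ± 0.25) and Nefl (4.85 ± 0.86) were among those higher there. The nuclear lamin gene Lmna stood at 572.0 to 770.7 in fibroblast-derived neurospheres, 86.3 on the GE array, 24.7 and 26.8 in primary and 62.8 and 106.9 in secondary neurospheres, and 1351.2 in adult fibroblasts, so that it was above the other neurospheres and below the fibroblasts. The epithelial keratin Krt19 stood at 182.6 to 575.8 in fibroblast-derived neurospheres, 0.8 and 2.6 in secondary neurospheres and 176.6 in adult fibroblasts. Krt8 stood at 169.2 to 1607.4 against 15.8 in the fibroblasts (4.89 ± 0.80, adjusted p = 0.00436), and is also among the epithelial markers above. Lower than on the GE array were Gfap (0.2 to 0.5 against 513.6), the filament of astrocytes, and the lens filament gene Bfsp2. The GE array was the only array with Gfap above 3. Against primary neurospheres 3 were higher and 5 lower (15.6% and 14.3% of all genes), with another neurofilament gene, Nefm, at 13.9 to 108.9 against 3091.4 and 925.6.

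Of 20 tested RNA-binding protein genes of neural and stem cells, 13 were lower and 0 higher in fibroblast-derived than in primary neurospheres (median -1.98), where 14.3% of all genes were lower. The neuronal splicing factor gene Nova1 stood at 20.9 to 63.1 against 863.5 and 409.5, and Rbfox1, another, at 3.0 to 7.1 against 192.9 and 90.4. Against secondary neurospheres 7 were lower and 3 higher (16.7% and 17% of all genes). Against the GE array 4 were lower and 4 higher, shares near those of all genes (12.8% and 15.6%), with Ptbp1, which represses neuronal splicing, higher (1.88 ± 0.32). Against adult fibroblasts 4 were higher and 0 lower, near the 15% of all genes that were higher, with Elavl2, a neuronal Hu protein gene, at 136.9 to 430.5 against 4.4 (4.79 ± 0.39, adjusted p = 0.000406). Elavl2 stood at 460.6 and 517.6 in iPS and ES cells. Of 7 Numb and Notch genes linked to Musashi, 2 were lower and 0 higher than on the GE array (12.8% and 15.6% of all genes). The Notch target Hes5 stood at 59.7, 31.1, 0.7 and 1.9 in fibroblast-derived replicates 1 to 4 against 1859.3 (-6.74 ± 0.70, adjusted p = 0.000414), and Notch1 was lower at -2.20 ± 0.56. Of the same 7, 3 were higher and 0 lower than in pluripotent cells (20.4% and 9.77% of all genes), with Numb at 0.80 ± 0.19 (adjusted p = 0.0162).

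Of 21 stem and progenitor surface genes, 10 were higher and 1 lower in fibroblast-derived neurospheres than in pluripotent cells (median 1.08, with 20.4% and 9.77% of all genes). Against the GE array 7 were lower and 3 higher (12.8% and 15.6% of all genes). Against adult fibroblasts 5 were higher and 7 lower (15% and 8.21% of all genes), and against secondary neurospheres 2 and 7 (17% and 16.7%). In pluripotent cells 3 were higher and 11 lower than in adult fibroblasts (19.5% of all genes each way). The EGF receptor gene Egfr stood at 138.0 to 257.2 against 3.7 and 4.2 in iPS and ES cells, with 1033.7 on the GE array and 524.1 in adult fibroblasts. The proteoglycan gene Cspg4 (NG2) stood at 35.2, 29.4, 198.5 and 138.7 in replicates 1 to 4, and at 1.0 or less in the iPS and ES cells. Cspg4 was also lower in pluripotent cells than in adult fibroblasts (-2.68 ± 0.45). The glutamate transporter Slc1a3, also on the radial glia list, stood at 15.0 to 31.7 against 2776.6 on the GE array. Gpm6b, the nearest relative of Gpm6a and the tested member of 2 listed in its family, stood at 928.4, 241.5, 107.9 and 308.4 in replicates 1 to 4, 368.2 in adult fibroblasts, 8.8 and 8.0 in iPS and ES cells and 5504.0 on the GE array. It was lower than on the GE array (-4.20 ± 0.68, adjusted p = 0.00299) and was above 20 on all 4 fibroblast-derived arrays. Of 8 tested relatives of Mmd2 in its receptor family, 4 were lower and 2 higher than on the GE array (12.8% and 15.6% of all genes). Paqr8 stood at 41.4 to 47.0 against 545.0, and the adiponectin receptor gene Adipor1 at 766.2 to 1054.9 against 267.5.

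**Figure D4:**
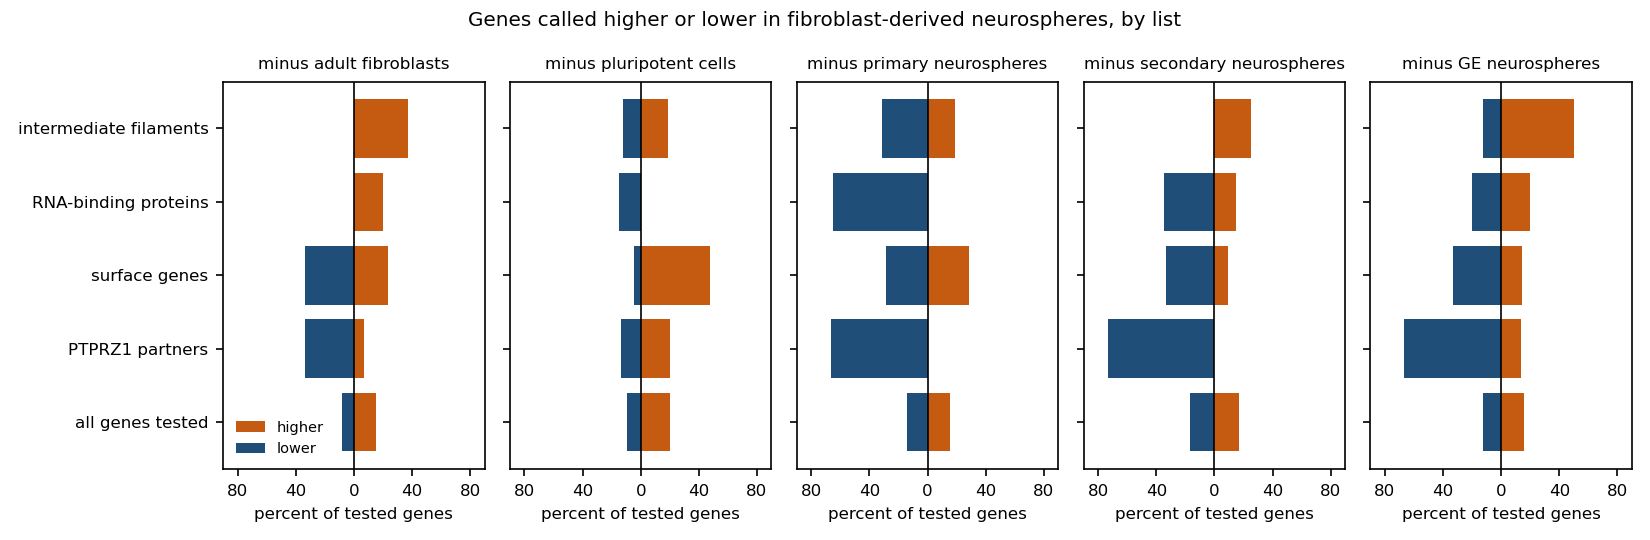
Percent of tested genes called higher (right) or lower (left) in fibroblast-derived neurospheres than in each other group, for 4 gene lists and for all 13650 genes. The lower bars of the PTPRZ1 list stand for 10 of 15 genes against primary and GE neurospheres and 11 of 15 against secondary neurospheres.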

How the data were processed

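The authors deposited linear signal intensities. The submitters' processing notes name Affymetrix Expression Console 1.1 and MAS5, the latter with no version. RNA was total RNA extracted with Trizol, per the labels. The 2%-trimmed mean was 100 on each of the 12 arrays, so a change in total RNA is hidden. Arrays were grouped by their labels and columns matched by name. Probe sets were named through the platform annotation: 34945 of 45101 had 1 symbol.

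A value of 5 was added to each deposited intensity before taking log2. A probe set entered if it reached 20 on at least 1 array, and the brightest one stood for its gene, which left 13650 genes. The 64 control probe sets were left out. All groups were fitted together with limma 3.58.1 in R 4.3.3 (eBayes with trend, 2-sided, 5 residual and 3.63 prior degrees of freedom), with Benjamini-Hochberg adjustment over all genes of a comparison and calls under 0.05. The fibroblast-derived group is the equal mean of its adult and embryonic pairs. Cultures of ES and iPS origin were compared on their arrays with the stage as a term. Of the comparisons, only that of fibroblast-derived with secondary neurospheres was checked on simulated data.

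The 8 genes and the lists were chosen with earlier results of these data known, including the low Mmd2 and Gpm6a against GE neurospheres and values of Nes, Vim and Ptprz1, which are no independent support. The text names all 8 genes, up to 3 called genes of a list per comparison with the smallest adjusted p, and the 5 genes most like each member. Lists were counted, not tested.

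Alternatives were pseudocounts of 1 and 20, a common median, quantile normalization, no filter and a filter at 100, the mean of probe sets, the second-brightest probe set, eBayes without trend, the line as a replicate block, only the groups compared, the adult- or embryonic-derived arrays alone, and each array left out. Same-numbered pluripotent, primary and secondary arrays are of the same line. After subtracting group means, their values correlated at 0.252 (pluripotent with primary), 0.0578 (pluripotent with secondary) and 0.425 (primary with secondary).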

Additional observations from a re-analysis of the deposited data

Results flagged for a closer look

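From primary to secondary neurospheres, 2 of the 8 genes went in opposite directions in the iPS and ES lines on their brightest probe sets. Prom1 changed by -0.32 in the iPS line and by 1.68 in the ES line on the scale of log2(signal + 5), a difference of 2. The ES-derived secondary neurospheres had the highest Prom1 signal of the 12 arrays, 2638.4. Msi2 changed by -0.24 in the iPS line and by 0.32 in the ES line, a difference of 0.55. Its second-brightest probe set rose in both lines, from 135.0 to 200.4 (iPS) and from 86.0 to 235.9 (ES). The dimmest passing probe set again went in opposite directions (16.7 to 8.9 and 14.4 to 28.4), and those between them rose in both lines. The opposite directions of Msi2 thus depend on the probe set. Each line has 1 array per stage, so these differences between lines were not tested.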

How the results depend on the processing

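Of 35 called differences of the 8 genes, 386 of 422 repeats under other settings kept direction and call, 35 kept direction without the call and 1 reversed. With 1 array left out, 314 of 350 kept both and none reversed. The 53 differences that were not called gained a call in 26 of 599 repeats and 20 of 530 with 1 array left out. The causes were not tested. The lower Ptprz1, Gpm6a and Mmd2 against GE and secondary neurospheres held under every alternative run.

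The same cell line marks the pairing of pluripotent, primary and secondary arrays, and with that line as a replicate block 5 members were called against adult fibroblasts (Nes and Msi1 added) in place of 3. The block changed 4 of 80 calls, given beside those results, and no other. Fitting only the groups compared, with fewer arrays for the spread, gave 5 calls against fibroblasts, 5 for primary against pluripotent cells, 0 for secondary against primary, 0 for secondary against GE neurospheres and 2 for pluripotent cells against fibroblasts. The count for secondary against primary neurospheres was 1 at a common median, with a pseudocount of 1, with no filter and with eBayes without trend. With the second-brightest probe sets pluripotent cells against fibroblasts gave 1.

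Reversals concerned differences that were not called, apart from Mmd2 against pluripotent cells, which the second-brightest probe set turned to 0.20. That probe set also turned Mmd2 against fibroblasts to 0.25, Msi1 and Gpm6a against pluripotent cells to 0.76 and -0.047, Msi1 between secondary and GE neurospheres to -0.42, Msi2 between embryonic- and adult-derived arrays to -0.49, Nes between pluripotent cells and fibroblasts to 0.24 and Ptprz1 by origin to 0.15. The mean of probe sets turned Msi1 against pluripotent cells to 0.34 and Msi2 between embryonic- and adult-derived arrays to -0.20. A common median turned Msi2 to -0.11 against pluripotent cells, -0.32 between secondary and primary neurospheres and -0.037 between embryonic- and adult-derived arrays. It turned Vim to -0.015 between secondary and primary and -0.050 between secondary and GE neurospheres, and Gpm6a between pluripotent cells and fibroblasts to -0.012. That last difference was -0.021 after quantile normalization and -0.093 with a pseudocount of 1. By origin, quantile normalization turned Prom1 to 0.11 and Ptprz1 to 0.034, and a pseudocount of 20 turned Prom1 to 0.039. The adult-derived arrays alone gave -0.090 for Ptprz1 and 0.40 for Mmd2 against fibroblasts, 0.40 for Nes against GE neurospheres and 0.082 for Msi1 against pluripotent cells. The embryonic-derived arrays alone gave -0.087 and -0.14 for Gpm6a against fibroblasts and pluripotent cells and 0.39 for Ptprz1 against primary neurospheres.

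With 1 array left out, the members called ranged from 3 to 5 against fibroblasts, 3 to 7 against secondary neurospheres, 1 to 2 for secondary against primary neurospheres and 0 to 1 for embryonic- against adult-derived. Prom1 ranged from -0.23 to 0.52 against GE neurospheres, -0.27 to 1.64 for secondary against primary, -0.56 to 0.94 for embryonic- against adult-derived and -1.01 to 0.91 by origin. Gpm6a ranged from -0.26 to 0.88 against fibroblasts, -0.31 to 0.83 against pluripotent cells, -1.94 to 0.34 for embryonic- against adult-derived and -0.50 to 0.60 for pluripotent cells against fibroblasts. Msi1 against pluripotent cells ranged from -1.05 to 0.91, Mmd2 against fibroblasts from -0.20 to 0.049, Nes for pluripotent cells against fibroblasts from -1.58 to 0.17 and Msi2 for secondary against primary from -0.29 to 0.37. By origin Vim ranged from -0.062 to 0.099 and Ptprz1 from -0.19 to 0.014.

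A common median moved the median of all genes by -0.42 against fibroblasts, -0.35 against pluripotent cells, -0.18 against primary and 0.14 against secondary neurospheres. It moved it by -0.31 for secondary against primary, -0.18 for secondary against GE neurospheres and -0.18 for primary against pluripotent cells. Quantile normalization moved it by -0.15 against fibroblasts, -0.17 against pluripotent cells and -0.11 for primary against pluripotent cells. Precision is limited by groups of 1 or 2 arrays and by dim signals: detection calls were not used, and values under 20 have no order.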

Other observations

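The genes most like each member over the 12 arrays were found by Pearson r among 13649 other genes, as a description of arrays that share groups and scaling. Nothing follows from them about shared function. Mmd2 was most like the proteoglycan gene Cspg5 (r = 0.986), which is also on the PTPRZ1 list, then Cerox1, Tmem229a, Sox8 and Shisa9. Gpm6a was most like Tmem163 (0.992), followed by Zcchc18, the transcription factor genes Nkx2-2 and Pou3f3, and Pantr1. For Gpm6a 396 genes had an r over 0.9, against 129 for Mmd2, 48 for Ptprz1 and 6 for Prom1.

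Ptprz1 was most like Trib2 (0.938), the collagen receptor gene Ddr1, Il18, Endod1 and Per2. Vim was most like the Hippo pathway kinase gene Lats1 (0.987), Add1, Tmem127, Ptprm and Zdhhc9, and Nes like Opn3 (0.960), Gdpd1, Zkscan3, Arid1b and Zfp658. Msi1 was most like Septin3 (0.975), Asxl3, Prr36, Csrnp2 and Bcl11a, and Msi2 like Frmd4b (0.973), Ralgps2, Sbk1, D930016D06Rik and the Notch target Nrarp. Prom1 was most like Usp6nl (0.946), Celsr1, Nos1ap, Ift140 and Homer2.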
